A study of Mus musculus with 3 samples.

Results

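The lysosomal cathepsins described here were Ctsa, Ctsb, Ctsc, Ctsd, Ctse, Ctsh, Ctsl, Ctss and Ctsz, chosen by gene name on a mouse expression array. These 9 genes were read by 11 of the 39429 probes on the array, and every probe is reported on all 3 arrays. The cells were bone marrow derived mast cells, that is, mast cells cultured from bone marrow, of male C57BL/6 mice lacking Pafah2, a phospholipase of oxidised lipids. The mice were 12 weeks old by the sample labels, and 8 to 12 weeks by the growth protocol. One group received a mixture of 17,18-EpETE and 19,20-EpDPE, which are epoxides of omega-3 fatty acids, at 300 nM in the ratio 2 to 3. Another received 0.5 µM GW9662, which blocks the nuclear receptor PPAR gamma, and the control received the solvent DMSO as vehicle. Exposure lasted 12 h in each case, and all 3 cultures lacked Pafah2, so no comparison here is with wild-type cells. What part of the gene was deleted, and whether mice were pooled, is not given in the sources used here. There was 1 array per group, all on 1 slide, so the spread between cultures is unknown and no difference could be tested.

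In the authors' deposited value table, the columns of the treated samples carry the values of each other's scanner files. The arrays are called here by the sample to which the scanner file is attached, as "labelled epoxides" and "labelled GW9662". If the value table is right, each statement about 1 treated array belongs to the other. A level is the log2 of a signal over its array's 75th percentile (intensity 2316 on the array labelled epoxides, 2004 on that labelled GW9662 and 1916 with vehicle), and a ratio is the difference between a probe's levels on a pair of arrays. The signal of a probe depends on its sequence, so levels of different probes are not ranked against each other. On every array 10 of 10 mast cell markers were well above background, with summed signals of 735, 843 and 929 times the 75th percentile on the arrays labelled epoxides and GW9662 and with vehicle.

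Cathepsins are proteases of lysosomes and endosomes. They are made as inactive precursors, carried to acidic compartments largely by mannose 6-phosphate tags, and activated there by removal of a propeptide. The secretory granules of mast cells are lysosome-related organelles, so cathepsins in these cells also act on the granule proteases stored there. The family has 3 catalytic kinds here: serine (Ctsa), aspartic (Ctsd and Ctse) and cysteine proteases (Ctsb, Ctsc, Ctsh, Ctsl, Ctss and Ctsz). Cystatins are inhibitors of the cysteine kind. In bulk RNA, fewer cells of a type and less RNA per cell cannot be told apart.

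Across the 8 cathepsins that were well above background on the arrays compared, no ratio reached 2-fold against vehicle, which 2.29% of all genes measured did on the array labelled epoxides and 0.823% on that labelled GW9662. On the array labelled epoxides they ran from -0.30 to 0.43 against vehicle, and on the array labelled GW9662 from -0.06 to 0.31. Ctss, a cysteine endopeptidase known for cutting the invariant chain of MHC class II, lay farthest from vehicle in both, at 0.43 (1.35-fold) and 0.31 (1.24-fold). Ctsc, Ctse and Ctsl were also above vehicle on both treated arrays. Ctsd and Ctsz lay below vehicle on the array labelled epoxides, by values that changed sign when a joint trend in probe base composition and signal was taken out. Ctsh was not well above background with vehicle.

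Probe sequences are shown for the genes whose probes disagree (Ctsa, Ctsd), whose ratio was largest (Ctss) or whose reading lay near background (Ctsh). Each is the first 30 bases of a 60-base probe, read 5′ to 3′ in the direction of the transcript as listed for the array; the Pltp stretch is bases 30 to 59 of its probe. Pltp is no cathepsin and was picked after its values were seen, because its probe is the reverse complement of the bright Ctsa probe over 59 bases.
Ctsa, bright probe: gggtggatggattctaattgatggttgact
Pltp, opposite strand: agtcaaccatcaattagaatccatccaccc
Ctsa, dim probe: gcggctaggtaaataagtatggttttatct
Ctsd, bright probe: gaaggagcaagaggacagaagcaaaactat
Ctsd, other probe: actgtatcggttccatgtaagtctgaccag
Ctss: cctgttgtctagtgttttctaataaccatt
Ctsh: acctagaatcgtctctctttccagctctct

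Ctsa encodes the serine carboxypeptidase also called protective protein, which holds beta-galactosidase and neuraminidase in a stable complex. Its bright probe (mm9, chr2:164665023-164665082, plus strand) had levels of 4.81 on the array labelled epoxides, 4.77 on that labelled GW9662 and 4.82 with vehicle. The 3 values lie within 0.06 of each other, less than the SD of a log2 ratio that copies of a probe on the same array give (0.082 for either treated array over vehicle). Culture, labelling and hybridisation add error that this spot SD leaves out. The Pltp probe, on the opposite strand of the same bases (chr2:164665022-164665081), read -6.80, -6.94 and -6.73 (epoxides, GW9662, vehicle) and was not well above background on any array. In the RefSeq gene table (GRCm38.p6) Pltp is the gene next to Ctsa. Of the probes for either strand here, that of Ctsa alone gave signal above background. The dim Ctsa probe lies 1410 bases further along the plus strand (chr2:164666433-164666492). It had -5.02 on the array labelled epoxides, -5.45 on that labelled GW9662, where it was not well above background, and -4.59 with vehicle. Its ratio was -0.43 for the array labelled epoxides. With GW9662 it was at least 1.36-fold lower than with vehicle, taking as its value there the dimmest reading that passes as well above background. The probes of Ctsa differ in this, and both were read in array rows 181 to 400, in which repeat copies of single probes disagreed most.

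Ctsd, the main aspartic protease of lysosomes, was read by its bright probe (chr7:149561962-149562021, minus strand). The intensities were 147798 on the array labelled epoxides, 156927 on that labelled GW9662 and 150680 with vehicle, with no spot saturated. After scaling, the levels were 6.00, 6.29 and 6.30, so the array labelled epoxides was lower than vehicle by a log2 ratio of -0.30 while the array labelled GW9662 differed by -0.01. The other Ctsd probe, listed as unmapped, had levels of 1.62, 1.72 and 1.74, with ratios of -0.12 and -0.01. Both probes put the array labelled epoxides lowest, but the second lay in rows 181 to 400 and its ratio was 1.46 times the spot SD. The first probe has a GC content of 53.3%, and among the genes measured the ratio of the array labelled epoxides to vehicle went down as probe GC content went up (r = -0.48 across 15818 genes, which share the same 2 arrays and are not independent replicates). After a trend in probe GC and signal was removed from each array, the ratio of Ctsd became 0.17, and with quantile normalization it was -0.05.

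Ctse is an aspartic protease of endosomes that in mice takes part in processing mast cell carboxypeptidase. Its probe (chr1:133571990-133572049, plus strand) had levels of -1.64 on the array labelled epoxides, -1.80 on that labelled GW9662 and -1.89 with vehicle. Both treated arrays were above vehicle, with ratios of 0.25 and 0.09. The first is 2.99 times the spot SD of a ratio and the second about equal to it. With rows 181 to 400 left out and the trend in probe GC and signal removed, the first was 0.15.

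**Figure D1:**
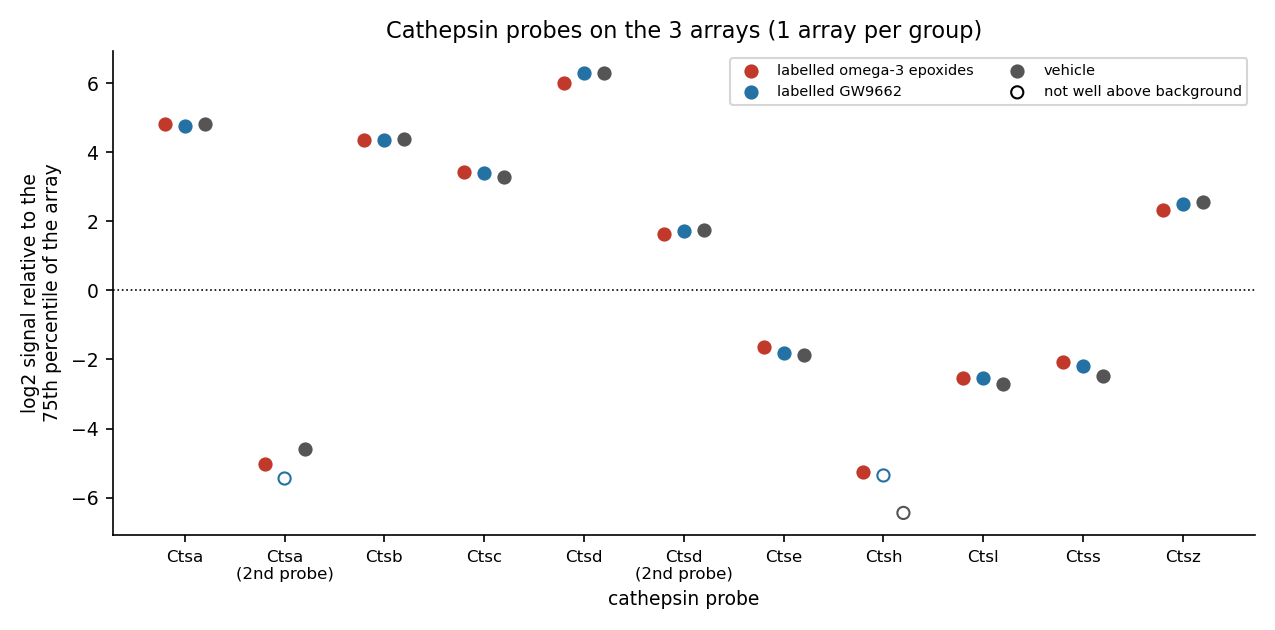
Level, as log2 of signal over the array's 75th percentile (vertical axis), of the 11 cathepsin probes (horizontal axis) on the arrays labelled omega-3 epoxides and GW9662 and with vehicle, 1 array each; open circles are readings not well above background. The 3 arrays nearly coincide for most probes, while the dim Ctsa probe and Ctsh sit between -6.44 and -4.59, near or under the background limit.

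Ctsb, a cysteine protease that cuts both within proteins and dipeptides from their ends, had levels of 4.35 on the array labelled epoxides, 4.35 on that labelled GW9662 and 4.37 with vehicle (chr14:63761906-63761965, plus strand). Its ratios of -0.03 and -0.02 were smaller than the spot SD. Ctsl, an endopeptidase that also matures other lysosomal enzymes, had -2.54, -2.54 and -2.71 in the same order (chr13:64465287-64465346, minus strand). The treated arrays agree within 0.01 for Ctsl, and both were above vehicle, at 0.17 and 0.16, about 2 times the spot SD. The spot lay in rows 181 to 400, where copies of a probe disagreed more.

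Ctss is unusual among the cysteine cathepsins in staying active at neutral pH. Its intensities were 555 on the array labelled epoxides, 442 on that labelled GW9662 and 340 with vehicle (chr3:95360245-95360304, plus strand). The levels were -2.06, -2.18 and -2.49. Vehicle was the lowest of the 3, and the ratios of 0.43 and 0.31 were 5.26 and 3.83 times the spot SD. That SD is a median over detected probes of any signal, so it is not matched to a spot as dim as this. The spot was outside rows 181 to 400. Under the other settings run on the scanner files the ratio of Ctss stayed between 0.34 and 0.57 for the array labelled epoxides and between 0.26 and 0.35 for the array labelled GW9662.

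Among the cysteine exopeptidases, Ctsc, or dipeptidyl peptidase I, is the enzyme that activates mast cell chymases by taking off their N-terminal dipeptide. It had levels of 3.43 on the array labelled epoxides, 3.39 on that labelled GW9662 and 3.27 with vehicle (chr7:95458436-95458495, plus strand). Both treated arrays were above vehicle, with ratios of 0.16 and 0.12, or 1.96 and 1.51 times the spot SD. Ctsz, a carboxypeptidase also called cathepsin X, read 2.33, 2.50 and 2.55 for epoxides, GW9662 and vehicle (chr2:174253228-174253287, minus strand). Its spot lay in rows 181 to 400. The array labelled epoxides was lowest, with a ratio of -0.22, against -0.05 for the array labelled GW9662. The Ctsz probe has a GC content of 55.0%, the highest of the 11, and with the trend in probe GC and signal removed the ratios were 0.08 and 0.03.

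Ctsh, an aminopeptidase, had levels of -5.26 on the array labelled epoxides, -5.36 on that labelled GW9662 and -6.44 with vehicle (chr9:89970828-89970887, plus strand). It was well above background on the array labelled epoxides only. That reading lies under the lowest level called well above background with vehicle (-4.84), so no bound on a fold can be given. Its spot was in rows 181 to 400.

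**Figure D2:**
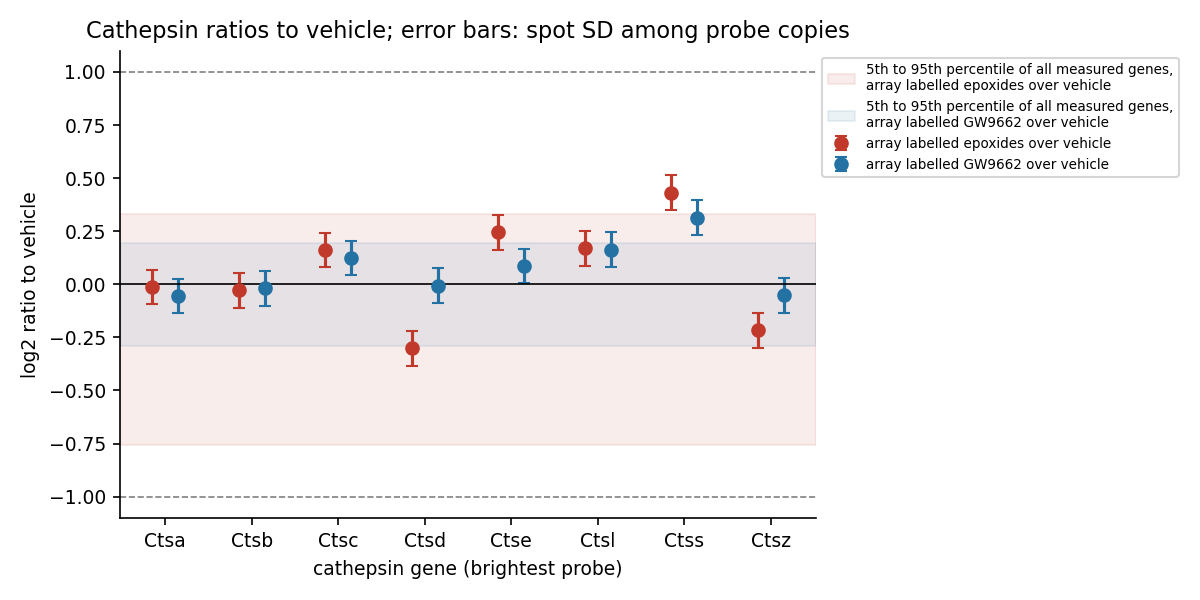
Log2 ratio to vehicle (vertical axis) of the 8 measured cathepsins for the arrays labelled epoxides and GW9662; bars are the SD of a ratio among copies of a probe (spot error), shaded bands the 5th to 95th percentiles of all measured genes, dashed lines 2-fold. Each Ctss point lies above the band of its own array, and Ctsd and Ctsz are the lowest on the array labelled epoxides.

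The first comparison asked which transcripts differ with omega-3 epoxides. Of the 8 cathepsins measured, 4 had positive and 4 negative ratios, with a median of 0.07, and the median over the 15818 genes measured was -0.07. None was 2-fold from vehicle, where 2.29% of all genes measured were (34 higher and 328 lower, or 63 higher and 141 lower with quantile normalization), and none was 1.5-fold from it, where 10.2% of all genes were. A count of 0 among 8 genes is near what those shares give. The median ratio over all genes varied with signal. It was -0.44 over the 1582 dimmest genes (mean level under -3.76), -0.16 over the next 1582 and -0.20 over the 1582 brightest. Among the 1582 genes of signal like Ctse, Ctsl and Ctss it was -0.08. For the array labelled epoxides, Ctss at 0.43 was above the 95th percentile of all genes (0.33), and the other 7 lay between the 5th (-0.76) and the 95th. With quantile normalization 6 of the 8 were positive. With the trend in probe GC and signal removed all 8 were, from 0.03 for Ctsb to 0.37 for Ctss, and 50.8% of all genes were, against 38.9% without that step.

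The second comparison asked about GW9662. Here again 4 ratios were positive and 4 negative, with a median of 0.04, beside -0.02 over all 15795 genes measured, of which 42.2% were positive. None was 2-fold from vehicle, where 0.823% of all genes were, or 1.5-fold, where 1.84% were. Without rows 181 to 400, 3 of 9924 genes were 2-fold from vehicle, and for the array labelled epoxides 135 of 9927. Ctss at 0.31 was above the 95th percentile of all genes (0.20), and the others lay between -0.06 and 0.16. Both comparisons use the same vehicle array, so a low reading of a spot there raises both ratios. The genes above vehicle were Ctsc, Ctse, Ctsl and Ctss in each, and these kept a positive ratio in each alternative that gave them a value. Ctsc, Ctse and Ctss each have 1 probe, detected on all arrays, not an outlier and outside rows 181 to 400. Probe means, no dim filter, outlier spots kept and those rows left out could therefore not change them. Ctsl had no value without those rows, and the value table only exchanges the treated arrays. The probes of Ctsc, Ctse, Ctsl and Ctss have GC contents of 35% to 40%, as do those of Ctsa and Ctsb, while Ctsd and Ctsz have 53.3% and 55.0%.

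The third comparison set the array labelled epoxides against the array labelled GW9662. Of the 8 ratios 5 were positive, with a median of 0.02, beside -0.06 over the 16049 genes measured. None was 2-fold, where 1.17% of all genes were, or 1.5-fold, where 5.75% were. Ctsd had the ratio farthest from 0, at -0.30, and the others ran from -0.17 for Ctsz to 0.16 for Ctse. The ratio of Ctss was 0.12, or 1.51 times the spot SD. With the trend removed, Ctsd came to 0.05 and Ctsz to 0.05.

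**Figure D3:**
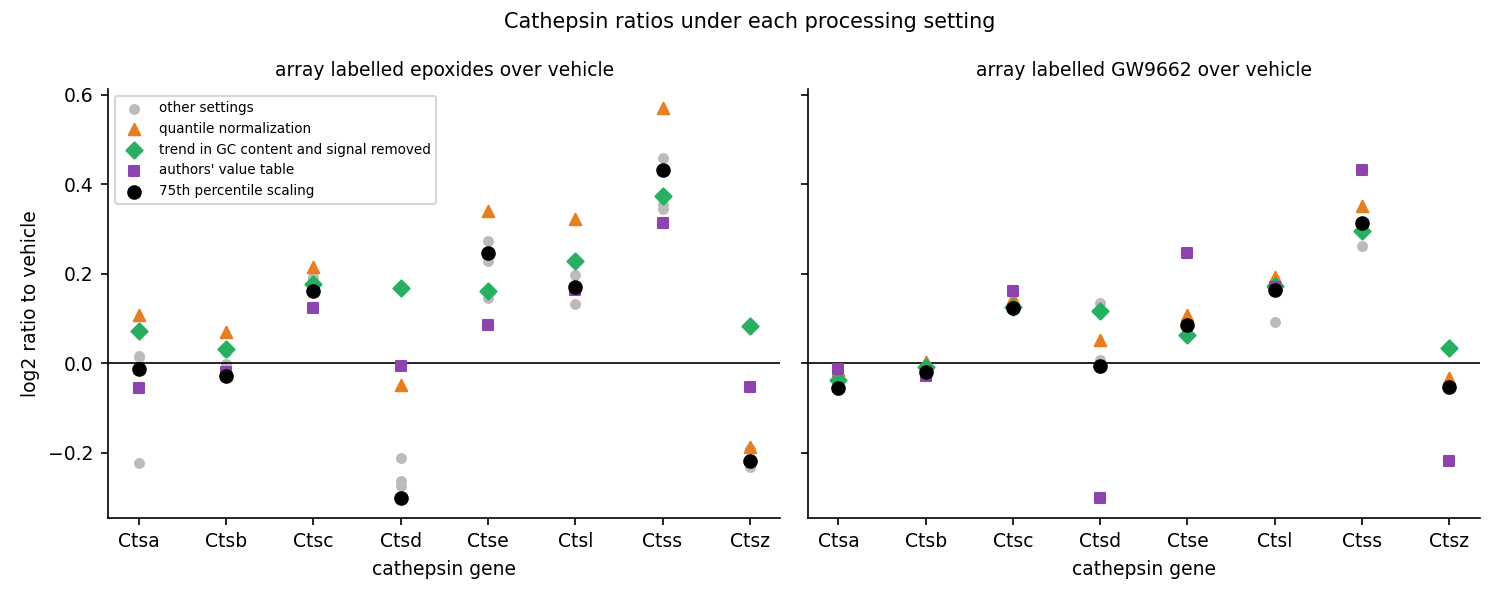
Log2 ratio to vehicle (vertical axis) of each measured cathepsin under the 75th percentile scaling (black) and the other processing settings, for the arrays labelled epoxides (left) and GW9662 (right). Ctsc, Ctse, Ctsl and Ctss stay above 0 throughout. When a trend with probe GC and signal is removed, Ctsa, Ctsb, Ctsd and Ctsz cross 0 on the left, and Ctsd and Ctsz on the right.

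Other cathepsins on the array were also read. All 9 cathepsins of the placenta-specific rodent cluster (Cts3, Cts6, Cts7, Cts8, Ctsj, Ctsll3, Ctsm, Ctsq and Ctsr) were not well above background on any array. Ctsf, Ctsk, Ctso and Ctsw were dim but above it on each. Ctsk, the collagen-cutting cathepsin of osteoclasts, had levels of -3.06 on the array labelled epoxides, -3.21 on that labelled GW9662 and -3.61 with vehicle, and ratios of 0.54 and 0.40. Both kept their sign under each setting run on the scanner files. Ctsf, another cysteine cathepsin, had ratios of -0.28 and 0.08, the first of which turned positive (0.06 at its highest) under another setting. In the RefSeq table Ctsk is the gene next to Ctss, and on mm9 its probe (chr3:95313165-95313224) shares no run longer than 6 bases with the Ctss probe. Ctsw and Ctso had -0.71 and -0.43 on the array labelled epoxides, and -0.17 and -0.03 on that labelled GW9662. Under other settings the epoxide ratios came as near to 0 as -0.18 and -0.08, and the GW9662 ratio of Ctso turned to 0.05. Ctsw and Ctso were among the 1582 dimmest genes measured, whose median epoxide ratio was -0.44.

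Of the inhibitors of cysteine cathepsins, the cystatins Cst3 and Cst7 had levels of 5.02 and 5.28 on the array labelled epoxides, 5.26 and 5.47 on that labelled GW9662, and 5.25 and 5.51 with vehicle. Ctla2a, a mouse protein like a cathepsin propeptide, had 7.14, 7.13 and 7.19. On the array labelled epoxides all 9 measured genes of this list had negative ratios, with a median of -0.22, which was -0.06 with quantile normalization and 0.005 once the trend in probe GC and signal was removed. On the array labelled GW9662 8 of 9 were negative, with a median of -0.06 (0.007 with the trend removed). Of all genes measured, 38.9% were positive on the array labelled epoxides and 42.2% on that labelled GW9662, with medians of -0.07 and -0.02. The stefins Stfa2 and Stfa1, intracellular inhibitors, lay farthest from vehicle, at -0.87 and -0.52 on the array labelled epoxides and -0.17 and -0.39 on that labelled GW9662. Both are dim and were read in rows 181 to 400. On the array labelled epoxides the median ratio was -0.44 over the 1582 dimmest genes measured and -0.16 over the next 1582. Under other settings the epoxide ratios of Stfa2 and Stfa1 came as near to 0 as -0.55 and -0.17. None of the 9 was 2-fold from vehicle on either array, beside the 2.29% and 0.823% of all genes.

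Of 9 measured genes that bring enzymes to the lysosome, 2 had positive ratios on the array labelled epoxides and 1 on that labelled GW9662, with medians of -0.11 and -0.05. Beside these, 38.9% and 42.2% of all genes measured were positive, with medians of -0.07 and -0.02. Sort1, the sorting receptor sortilin, had levels of -3.83 on the array labelled epoxides, -3.37 on that labelled GW9662 and -2.88 with vehicle, which gives ratios of -0.95 and -0.49. Nagpa, which uncovers the mannose 6-phosphate tag, had -0.69 and -0.23. Their ratios kept their sign under each setting run on the scanner files. The 32 measured lysosomal hydrolases outside the family had medians of -0.11 (4 positive) and -0.04 (9 positive), with Acp5, an acid phosphatase, at -0.55 and -0.43. Those values of Acp5 were the farthest from 0 of any setting run on the scanner files, and the nearest were -0.24 and -0.02. Acp5 was among the 1582 dimmest genes measured, whose median epoxide ratio was -0.44. With the trend removed, 14 and 13 of the 32 were positive, beside 50.8% and 48.9% of all genes. Sgsh, a heparan sulfatase, had 0.39 on the array labelled epoxides, and the carrier Slc17a5 was the lowest of the 16 lysosomal membrane proteins there at -0.44.

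Of 16 subunits and partners of the proton pump that acidifies lysosomes, 7 had positive ratios on each treated array, with medians of -0.06 and -0.005. Beside these, 38.9% and 42.2% of all genes measured were positive. Atp6v1b2, a subunit of the ATP-hydrolysing part, was at least 2-fold from vehicle on the array labelled epoxides, as 2.29% of all genes measured were, and the only one of the genes measured in the lysosomal, protease and MHC class II lists to be so on either treated array. Its levels were -1.67 on the array labelled epoxides, -2.80 on that labelled GW9662 and -2.75 with vehicle, a ratio of 1.08 and of -0.04. With normexp background correction the first was 0.89, under 2-fold. It was read by 1 spot outside rows 181 to 400. Mitf and Tfe3, transcription factors that bind lysosomal gene promoters, had ratios of 0.12 and 0.06 on the array labelled epoxides. Each had -0.04 on that labelled GW9662. Under other settings the epoxide ratios reached -0.10 for Mitf, whose spot lay in rows 181 to 400, and -0.05 for Tfe3. Tfec was not well above background on any array. Tfeb was called above it on the array labelled epoxides alone, but its reading was higher with vehicle. Its levels were -4.95 on the array labelled epoxides, -4.97 on that labelled GW9662 and -4.81 with vehicle, by a spot in rows 181 to 400.

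Substrates of cathepsins in these cells include the granule proteases. Of 11 measured, 2 had positive ratios on the array labelled epoxides (median -0.32, and -0.13 with the trend removed) and 3 on the array labelled GW9662 (median -0.06). Of all genes measured, 38.9% and 42.2% were positive. Cpa3, mast cell carboxypeptidase, was the farthest from vehicle, at -0.68 and -0.42, while Ctsc, which activates the chymases, was at 0.16 and 0.12. The invariant chain Cd74, the substrate of Ctss, was barely detected, with levels of -4.96 on the array labelled epoxides, -4.63 on that labelled GW9662 and -4.94 with vehicle, where it was not well above background. Ciita, the activator of MHC class II genes, had -0.81 and -0.96, with a dim probe in rows 181 to 400. H2-DMb1 of the same list had levels of 2.59 on the array labelled epoxides, 2.72 on that labelled GW9662 and 2.75 with vehicle. Its ratios were -0.16 and -0.03. H2-DMa had ratios of -0.31 and -0.07, and H2-Ab1 -0.10 and -0.04. The epoxide ratios of H2-DMa and H2-Ab1 turned positive under other settings. H2-Aa and H2-Eb1 were not well above background on any array.

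**Figure D4:**
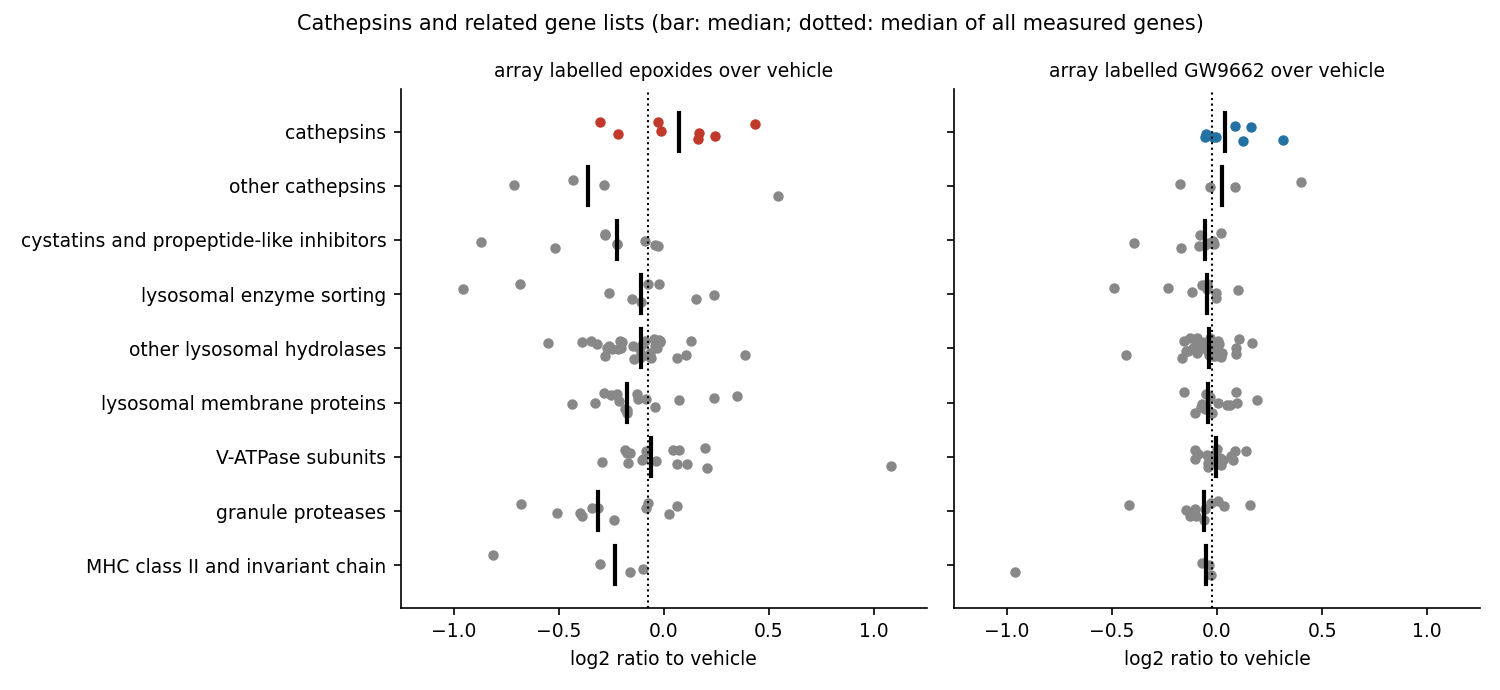
Log2 ratio to vehicle (horizontal axis) of each measured gene in the cathepsins and 8 related lists for the arrays labelled epoxides (left) and GW9662 (right); black bars are list medians and the dotted line the median of all measured genes. On the left the cathepsin median of 0.07 is above that line and the median of the inhibitors, at -0.22, is below it.

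Ctss is known as a gene of macrophages and dendritic cells, so markers of other cells are given beside it. Of 11 macrophage markers, 5, 6 and 6 were well above background on the arrays labelled epoxides and GW9662 and with vehicle, with summed signals of 1.69, 1.64 and 1.64 times the 75th percentile. Mrc1, Lyz2, C1qa and C1qc were not above background on any array. Of the 5 measured in each comparison with vehicle, 2 had positive and 3 negative ratios. Lyz1 had 0.28 on the array labelled epoxides and 0.17 on that labelled GW9662. Under the other settings run on the scanner files it ran from 0.14 to 0.33 and from 0.13 to 0.18. Adgre1, the macrophage antigen F4/80, had ratios of 0.37 on the array labelled epoxides and 0.10 on that labelled GW9662. The first was -0.73 as the mean of its detected probes, and the second -0.70 at its lowest. C1qb, a dim gene, had -0.97 and -0.31, and its epoxide ratio came as near to 0 as -0.46. Marco had -0.46 and -0.21, and its epoxide ratio reached 0.07 under another setting. Csf1r had -0.21 and -0.18, by a spot in rows 181 to 400. Both ratios of Csf1r stayed negative under each setting run on the scanner files that gave a value. Fcgr1, a receptor for IgG, was at least 2.06-fold lower than vehicle on the array labelled epoxides, where it was not well above background, and its spot lay in rows 181 to 400. Of 6 dendritic cell markers, 3 were above background on each array, with summed signals of 32.6, 35.6 and 38.9, nearly all from Siglech, and Zbtb46, Xcr1 and Clec9a were not above background on any. Neutrophil markers were above background in 4, 4 and 3 of 9, with sums of 1.34, 1.99 and 1.93. Mpo, the myeloperoxidase of neutrophil granules, had levels of -5.42 on the array labelled epoxides, -2.42 on that labelled GW9662 and -5.48 with vehicle, where it was not well above background. It was at least 5.33-fold higher than vehicle on the array labelled GW9662, by a spot in rows 181 to 400. Basophil markers were above it in 3 of 3 on each array, with sums of 12.7, 12.8 and 12.9, and eosinophil markers in 0 of 4. The part of other cells in the ratio of Ctss was not tested.

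Among the 8476 genes with a signal at or above the median of detected probes, those closest to Ctss in their pair of ratios to vehicle were Gm38396, Zfp638 and Arhgap15, at distances of 0.02, 0.04 and 0.06 on the log2 scale. That median is a level of -0.13, and Ctss itself lies below it. Genes as dim as Ctss, among them Ctsk, were therefore not searched. Zfp638, a zinc finger protein, had 0.46 on the array labelled epoxides and 0.28 on that labelled GW9662. Gm38396 had 0.42 and 0.33, and Arhgap15, a GTPase-activating protein, had 0.41 and 0.26. This likeness rests on 3 arrays that share the vehicle reading.

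Promoters of 6 of the 9 genes were in the RefSeq promoter table (GRCm38.p6, 250 bases before to 50 after each start, 7 promoters, Ctsa with 2). The E-box CACGTG, which reads the same on both strands and is bound by Mitf and its relatives, was present for Ctsa, Ctsd and Ctsl, against 7.15% of the 32851 promoters of that length. The related TCATGTG, searched on both strands and sharing no letters with the E-boxes found, was present for Ctsa and Ctss, against 3.77% of all. The 30-base windows are shown beside the readings of Mitf (levels of 4.01 on the array labelled epoxides, 3.85 on that labelled GW9662 and 3.89 with vehicle); capitals mark the motif.
Ctsa, plus strand, chr2:164833749-164833778: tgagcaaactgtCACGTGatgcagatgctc
Ctsa, plus strand, chr2:164833766-164833795: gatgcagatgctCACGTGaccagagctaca
Ctsd, minus strand, chr7:142388048-142388077: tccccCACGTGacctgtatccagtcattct
Ctsd, minus strand, chr7:142387908-142387937: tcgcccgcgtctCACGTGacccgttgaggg
Ctsl, minus strand, chr13:64370739-64370768: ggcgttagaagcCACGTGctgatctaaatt
Ctss, plus strand, chr3:95526793-95526822: ttgtggatgctTCATGTGacaagctccgat
In Ctsa the E-boxes begin 12 bases before and 5 after the start, and in Ctss the related motif begins 18 bases after it. The letters TATAAA, searched on both strands, were found for Ctss on the reverse strand, beginning at base -233 from the start, against 13.6% of all promoters. Genes with an E-box had ratios on the array labelled epoxides of -0.01 (Ctsa), -0.30 (Ctsd) and 0.17 (Ctsl). A match says only that these letters stand in the window.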

How the data were processed

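Total RNA (200 ng per labelling) was measured on 1-colour Cy3 arrays; the submitters' processing notes name Agilent Feature Extraction 11.5.1.1. The signal column used, gProcessedSignal, is per the file headers a linear intensity, with background and spatial trend already taken off, and probe positions are on mm9. The authors' deposited value table holds a linear ratio, the processed intensity over the array's 75th percentile (tolerance 0.001).

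Levels are log2 of gProcessedSignal over the array's 75th percentile among 43020 non-control spots. Outlier spots (221 on the array labelled epoxides, 251 on that labelled GW9662 and 230 with vehicle) were left out; none was a cathepsin. Well above background were 54.6%, 53.3% and 52.3% of spots. Each gene took the probe of highest mean level over the arrays, and counted as measured when well above background on both arrays; 28330 probes were named through RefSeq. Spot error was the median over 219 probes, detected on all arrays and of any signal, of the SD among copies of a probe. It was not matched to the signal of a given spot. With 1 array per group no test was run, and 2-fold ratios were only counted; the number of arrays limits the precision. Rows 181 to 400 of 532 hold every band of 20 rows where 2% or more of copies (probes with 5 or more) lay 2-fold from their probe's median. Ratios and trend removal were run on simulated data as a check of the code only. The simulated trend was linear in GC and level, a form the removal fits, so its removal was fixed in advance. The noise was equal for all probes, so the check does not cover dim spots or rows 181 to 400. Alternatives used normexp (limma 3.58.1, R 4.3.3, offset 50), quantile normalization, detected-probe scaling, the value table, probe means, no dim filter, outlier spots, rows and trend (Python 3.11.15).

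The members, the 16 lists (161 genes, all found) and the alternatives were chosen with earlier results of these data known. Genes named were all members and up to 3 measured genes of each list farthest from vehicle in each comparison. Also named were the 3 genes nearest to the member farthest from vehicle. Other names (Pltp, Cst3, Cst7, Ctla2a, Cd74, Tfec, Tfeb, Lyz1, Fcgr1, Mpo and those given as not above background) were added after their values were seen.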

Additional observations from a re-analysis of the deposited data

How the results depend on the processing

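No paired analysis was possible because each group had 1 array. Beside the 75th percentile scaling 10 alternatives were run, of which 8 gave a value for Ctsa, Ctsl and Ctsz, read in rows 181 to 400, and 1 more, a 1.5-fold limit, for counts. Some alternatives could not change a gene read by 1 detected spot outside those rows that was no outlier. These were probe means, no dim filter, outlier spots kept and those rows left out. Of 30 medians 24 moved by less than the spot SD of a ratio. For the array labelled epoxides over vehicle the median of 0.07 became 0.16 with quantile normalization, 0.16 with no filter on dim probes, 0.16 without rows 181 to 400, 0.165 with the trend in probe GC and signal taken out, and 0.165 with both; for the array labelled GW9662 it became 0.12 with both. Without those rows 5 genes were left. With no filter on dim probes the count of cathepsins 2-fold from vehicle was 1 for each treated array (Ctsh, not above background with vehicle), and it was 0 in each other setting. Of 222 single-gene values 183 moved by less than the spot SD and 31 had another sign. These included Ctsd and Ctsz with the trend removed, and, with the value table, each gene's ratio of epoxides over GW9662, since that table exchanges the treated arrays. The cause of the trend was not tested. Genes 2-fold from vehicle on the array labelled epoxides numbered 362, and 144 with normexp, 204 with quantile normalization, 174 with the trend removed, 135 without the rows, 44 with both, 130 by the value table and 2975 with no dim filter. For the array labelled GW9662 they numbered 130, and 3 without the rows, 3 with both, 362 by the value table and 2048 with no dim filter. For epoxides over GW9662 they numbered 187, and 87 with normexp, 27 without the rows, 22 with both and 2433 with no dim filter. Readings of Ctsh and the dim Ctsa probe are limited by signal over background.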

Other observations

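Genes of the lists that were lower than vehicle on both treated arrays included Sort1 and Ciita. The ratio of Sort1 ran from -0.95 to -0.51 over the settings run on the scanner files for the array labelled epoxides, and from -0.49 to -0.37 for the array labelled GW9662. That of Ciita ran from -0.81 to -0.37 and from -0.96 to -0.63, where its spot was used. Atp6v1b2, which was higher than vehicle on the array labelled epoxides alone, ran from 0.89 to 1.20 there and from -0.06 to -0.02 on the array labelled GW9662. Siglech, a lectin used as a marker of plasmacytoid dendritic cells, had levels of 5.02 on the array labelled epoxides, 5.14 on that labelled GW9662 and 5.27 with vehicle. Each of these genes was read on 1 array per group, and no value here was tested.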
